A study of Arabidopsis thaliana with 15 samples.

Results

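Stress NAC transcription factors are described here in a systemic leaf of *Arabidopsis*. The group holds 10 genes chosen by their gene identifiers: ANAC019, ANAC055, ANAC072, ATAF1, ATAF2, ANAC032, ANAC102, NAP, ORE1 and JUB1. All 10 were found among the 32833 genes of the expression table. Values were FPKM (fragments scaled to transcript length and to the number of mapped fragments), which the authors made with StringTie, so levels of different genes could be compared per length. Leaf 6 of wild-type (WT) plants was sequenced in 15 libraries, 3 in each of 5 groups. Plants were 22 to 24 days old, and all had grown in MS medium at 22 °C under 10 h light and 14 h dark. In the GSH group, 100 mM glutathione had been applied to leaf 1 and leaf 6 was taken 1 h later. In the Glu group, 100 mM glutamate was applied in the same way for the same time. The mock group had received no small molecule. In the wounding group leaf 1 had been wounded 1 h before leaf 6 was taken, and the wounding mock group was leaf 6 before wounding. No transgene or mutant allele was named for any group. By the study's methods, the solutions were put on the cut edge of a leaf 1 that had been cut earlier, and no group analysed here had received the solvent alone. Sample names mark both control groups as the start and the treated groups as 1 h. Elapsed time can thus not be told apart from treatment in any comparison with a control. The labels do not say whether the mock plants had been cut. They also do not say whether replicates were separate plants, so p-values measure only the spread between these libraries.

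NAC proteins bind DNA through a conserved N-terminal NAC domain, and their genes form one of the large families of plant transcription factors. ANAC019, ANAC055 and ANAC072 (RD26) are close relatives that respond to jasmonate, abscisic acid and drought, and they are known as direct targets of MYC2, a master regulator of jasmonate responses. ATAF1, ATAF2, ANAC032 and ANAC102 form the ATAF subgroup, which responds to wounding, pathogens and abiotic stress. NAP and ORE1 promote leaf senescence, and JUB1 delays it.

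The 250 bases before the transcript start of ANAC019, ANAC032 and ANAC072 are shown first, because these 3 genes were the members that passed the threshold in the wounding comparison. Sequences and positions are from RefSeq, build TAIR10.1, and each is read 5′ to 3′ on the strand of its gene. ANAC019 (AT1G52890) lies on the minus strand and its window is chr1:19698483-19698732. ANAC032 (AT1G77450) lies on the plus strand, with the window chr1:29099589-29099838. ANAC072 (AT4G27410) lies on the minus strand, with the window chr4:13709171-13709420. No other annotated gene reached into these windows. Capitals mark a match to a searched motif on either strand.
ANAC019: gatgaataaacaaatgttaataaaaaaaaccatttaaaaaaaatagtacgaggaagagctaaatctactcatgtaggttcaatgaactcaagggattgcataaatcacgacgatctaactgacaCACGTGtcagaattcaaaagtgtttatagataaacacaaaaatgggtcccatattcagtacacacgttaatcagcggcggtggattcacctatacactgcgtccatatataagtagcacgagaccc
ANAC032: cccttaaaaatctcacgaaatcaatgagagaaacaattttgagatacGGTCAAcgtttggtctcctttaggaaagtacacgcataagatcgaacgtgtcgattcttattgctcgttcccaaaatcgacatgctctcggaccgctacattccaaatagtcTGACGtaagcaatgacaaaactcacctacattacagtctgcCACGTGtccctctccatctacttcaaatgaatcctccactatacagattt
ANAC072: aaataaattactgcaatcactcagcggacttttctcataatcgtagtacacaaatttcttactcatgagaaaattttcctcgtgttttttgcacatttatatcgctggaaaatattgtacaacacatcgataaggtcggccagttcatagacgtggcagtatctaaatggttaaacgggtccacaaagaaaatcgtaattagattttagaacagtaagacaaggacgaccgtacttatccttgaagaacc

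The searched motifs were CACGTG (the G-box, bound by MYC2 and by bZIP factors), CACATG (an E-box bound by MYC2), TTGACC and TTGACT (forms of the W-box, bound by WRKY factors), CGCGTT (the rapid stress response element) and TGACG (the core bound by TGA factors). A G-box was found in 3 of the 10 windows, where it began 126 bases before the start of ANAC019, 50 bases before that of ANAC032 and 242 bases before that of NAP. Of 27443 windows of this length before protein-coding genes, 6.49% held a G-box. ANAC032 also held TTGACC (on the minus strand of the gene) and TGACG, at 203 and 91 bases before its start, and ANAC102 held TGACG at 89 bases. Over all windows TTGACC was found in 12.2%, TTGACT in 19.1% and TGACG in 18.6%. ORE1 held CGCGTT at 117 bases, a motif of 2.59% of windows, and JUB1 held both W-box forms, at 79 and 97 bases. None of the searched letters stood in the windows of ANAC072, ANAC055, ATAF1 and ATAF2, and CACATG (11.1% of all windows) was in none of the 10. The window of ATAF1 overlapped another gene. These matches describe letters and not bound sites. Of the genes with a G-box, ANAC019 and ANAC032 rose after wounding, and NAP was at or near 0 FPKM in every library. Of the genes without one in the window, ANAC072 rose in each of the 3 treatments. ATAF2, also without one, lay above its own control without overlap in each treatment. So did 14.3% of all genes after wounding, 18.6% after GSH and 17.8% after Glu. ATAF1 and ANAC102, also without one, overlapped their own control in each treatment. ANAC055, ORE1 and JUB1, the remaining genes without one, stayed under 1 FPKM in every library. Sequence outside these windows was not searched, and a link between motifs and expression was not tested.

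**Figure D1:**
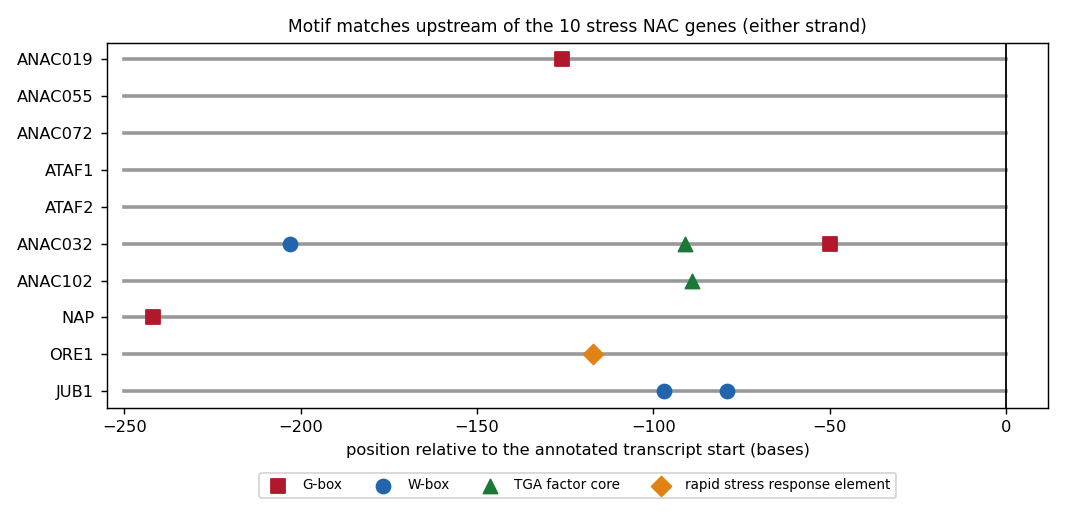
Each grey line is the 250 bases before the annotated start of a gene, with the start at 0 on the horizontal axis (bases), and each symbol is a motif match on either strand. G-boxes stand at 126, 50 and 242 bases before the starts of ANAC019, ANAC032 and NAP, and 4 genes have no match.

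All 10 genes have 3 exons in the longest transcript of the annotation. ANAC019 spans chr1:19696923-19698482, ANAC072 chr4:13707192-13709170 and ANAC032 chr1:29099839-29101759, and none of them overlaps another annotated gene. ATAF1 (AT1G01720, chr1:267993-269819), ATAF2 (AT5G08790, chr5:2858849-2860558), ANAC102 (AT5G63790, chr5:25526509-25528281) and JUB1 (AT2G43000, chr2:17880457-17882636) each overlap a gene on the opposite strand. It is not stated that strand was used in counting, so reads in the overlaps (344 and 28, 158, 85 and 107 bases in turn) cannot be assigned with certainty. Among the members, ANAC019 and ANAC055 (AT3G15500) had the most similar coding sequences, with 76.0% identity. The longest run of identical bases in any pair of member transcripts was 32 bases, between ANAC055 and ATAF2.

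The label of the tissue was checked against markers. The mesophyll genes RBCS1A (8089 to 11991 FPKM) and LHCB1.3 (6777 to 11172 FPKM) were high in every library, and the epidermal ATML1, the guard cell MYB60 and the companion cell SUC2 were detected in all 15. The trichome gene GL1 was listed at 0 in 13 libraries, and the markers of root endodermis, flower and seed did not exceed 0.569 FPKM. Sums of FPKM per library ran from 548167 to 580837. They do not count fragments, and the depth is unknown. Wounding mock replicate 1 stood apart. It listed 18664 genes above 0, against 21090 to 21750 in the other 14 libraries, and its correlation with its replicates (0.976 at the lowest) was below that within any other group (0.990 or more). The tests of the members and of the list genes called in the wounding comparison, in the differences between effects and between the control groups are given with and without it. Levels, sums, marker tests and comparisons of GSH or Glu with the wounding mock are given with it alone. Leaf 6 is a bulk tissue, in which fewer cells of a type and less RNA per cell cannot be told apart.

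Of the 10 genes, 6 reached 1 FPKM in at least 3 of the 15 libraries and could be tested: ANAC019, ANAC072, ATAF1, ATAF2, ANAC032 and ANAC102. Over all libraries, ANAC102 ranked 3, ATAF2 4, ATAF1 5 and ANAC032 8 by mean FPKM among the 100 NAC genes of the annotation, while ANAC072 and ANAC019 ranked 22 and 23. In mock leaves ANAC102 was highest at 35.7 ± 3.45 FPKM (SD, n = 3), above ATAF2 at 23.3 ± 1.41 and ATAF1 at 22.7 ± 3.01, whose ranges overlapped. ANAC032 followed at 9.28 ± 2.44, and ANAC072 at 1.28 ± 0.221 and ANAC019 at 1.22 ± 0.222 overlapped each other. This order of the 6 genes by mean also held in the GSH, Glu and wounding mock groups. In the wounding group it did not, because ANAC032 was first at 36.3 ± 3.68 FPKM, followed by ATAF2 at 23.8 ± 0.948, ANAC102 at 16.3 ± 1.38, ATAF1 at 14.6 ± 1.72, ANAC019 at 9.97 ± 1.26 and ANAC072 at 6.72 ± 0.415. There, only ANAC102 and ATAF1 overlapped among neighbours in the order.

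The other 4 genes stayed under 1 FPKM in all 15 libraries. ANAC055 was listed at 0 in 9 libraries, and its highest value was 0.282 FPKM in GSH replicate 1. After wounding it was at 0.125, 0.125 and 0.149 FPKM, above the 0, 0.0338 and 0.0264 FPKM of the wounding mock. NAP did not exceed 0.253 FPKM, and ORE1 did not exceed 0.777 FPKM. The highest value of JUB1 was 0.593 FPKM. The highest values of NAP, ORE1 and JUB1 were in libraries of the wounding mock group, those of ORE1 and JUB1 in its replicate 1. No test was made of these 4 genes.

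**Figure D2:**
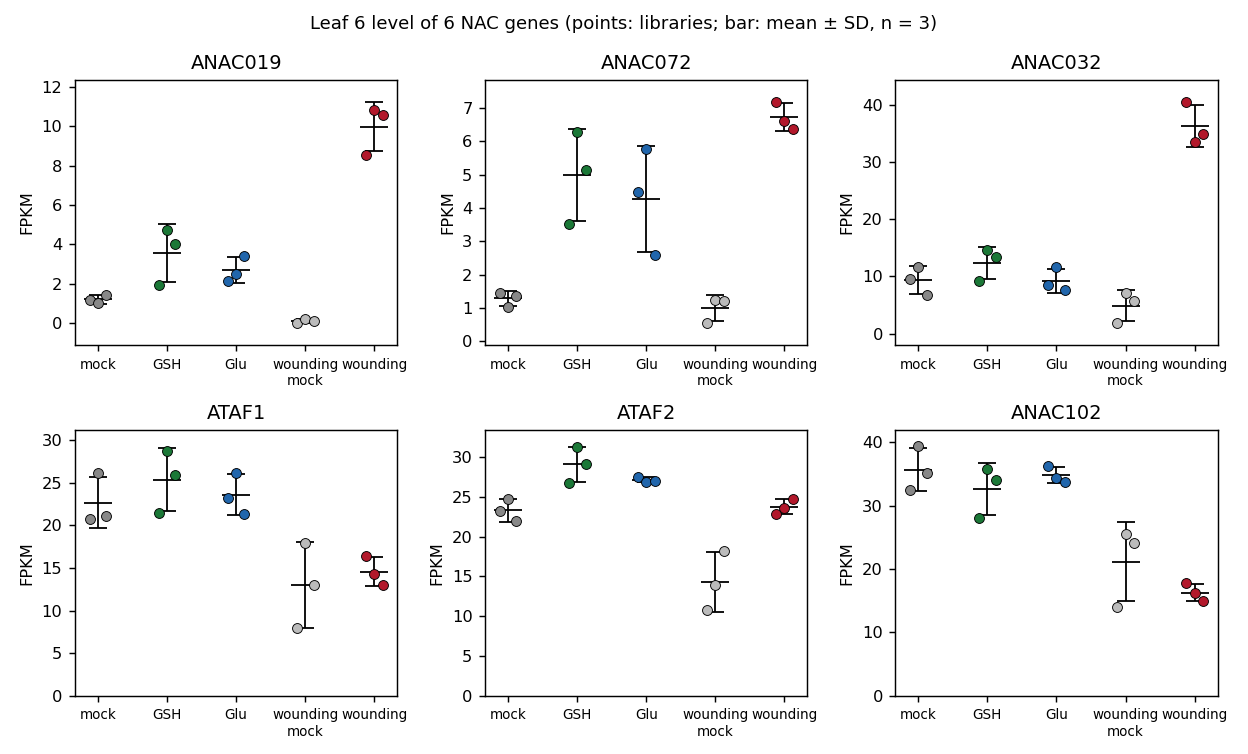
Each panel gives the FPKM (vertical axis, from 0) of a NAC gene in the 5 groups, with points for libraries and bars for the mean ± SD (n = 3). ANAC019 and ANAC032 are highest after wounding, ANAC072 is raised in all 3 treated groups, and the wounding mock libraries of ATAF1, ATAF2 and ANAC102 lie below their mock libraries.

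Wounding of leaf 1 was followed by higher ANAC019, ANAC032 and ANAC072 in leaf 6. The comparison with leaf 6 before wounding asks which genes differ in a distant leaf after a local wound. Groups were compared with limma on log2(FPKM + 1), and a gene was called a DEG at an adjusted p (Benjamini-Hochberg over all tested genes) under 0.05 when its log2 fold change was also above 1 in size. By this rule 3 of the 6 tested members were DEGs, all higher, against 8.02% of the 16803 genes tested (5.28% higher). The median log2 fold change was 1.35 over the 6 members and -0.07 over all genes. A gene was tested where at least 3 of the compared libraries reached 1 FPKM. ANAC019 passed this filter only through its wounding libraries, so it could enter the count and the median only as a higher gene.

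ANAC019 was at 0, 0.217 and 0.115 FPKM in the wounding mock libraries and at 8.52, 10.8 and 10.6 FPKM after wounding. The wounding libraries were thus all far above a level near 0. Its log2 fold change was 3.30 (SE 0.16, adjusted p = 9.9e-06). On the scale with 1 added, this value understates the ratio of FPKM for a gene that starts so low. ANAC032, which acts in several stress responses and in senescence, went from 1.80, 7.05 and 5.71 FPKM to 40.5, 33.5 and 34.9 FPKM. Its mean level was 7.48 times that of the wounding mock, with a log2 fold change of 2.80 (SE 0.36, adjusted p = 0.0016). ANAC072 rose from 0.539, 1.25 and 1.21 FPKM to 7.19, 6.60 and 6.38 FPKM. Its mean level was 6.73 times higher and its log2 fold change was 1.97 (SE 0.19, adjusted p = 0.00033). For these 3 genes the groups did not overlap.

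The other ATAF genes differed from ANAC032. ATAF2, a gene known for its wound response, was at 10.8, 13.9 and 18.2 FPKM in the wounding mock and at 22.9, 23.6 and 24.8 FPKM after wounding. The groups did not overlap, but the log2 fold change of 0.72 (SE 0.18, adjusted p = 0.027) was under the threshold on fold. Of all genes tested, 14.3% lay higher without overlap. ATAF1 was at 7.90, 17.96 and 13.1 FPKM before and at 16.4, 14.3 and 13.0 FPKM after wounding. ANAC102, described in detoxification and low-oxygen stress, was at 14.0, 25.5 and 24.0 FPKM before and at 17.7, 16.1 and 14.95 FPKM after. Both sets of groups overlapped, with log2 fold changes of 0.22 (adjusted p = 0.64) and -0.32 (adjusted p = 0.38).

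Wounding mock replicate 1, the library that stood apart, held the lowest value of all 15 libraries for each of these 6 genes. Without it, the 3 DEGs remained, with log2 fold changes of 3.23 for ANAC019, 1.79 for ANAC072 and 2.34 for ANAC032. ATAF2 was then at 0.55 (adjusted p = 0.011) and ATAF1 at -0.07 (adjusted p = 0.73). ANAC102 was at -0.58 with an adjusted p of 0.0038, still under the threshold on fold. ANAC102 shares 85 bases with SHA1 on the opposite strand, and SHA1 had itself a log2 fold change of -0.92 (adjusted p = 0.00074) in the comparison with all 6 libraries. The part of SHA1 in the ANAC102 value was not tested.

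Markers of leaf cell types also differed in this comparison. Of the 6 leaf markers, 5 were tested. The epidermal ATML1 fell from 24.0 to 30.1 FPKM in the wounding mock to 11.8 to 13.2 FPKM after wounding (log2 fold change -1.002, adjusted p = 0.0011). This change was only just past the threshold on fold. The 30.1 FPKM was that of wounding mock replicate 1, and the markers were not tested without that library. The companion cell SUC2 was at 108 to 131 FPKM before and at 72.8 to 85.4 FPKM after (-0.60, adjusted p = 0.0083), and LHCB1.3 was at 8339 to 11172 FPKM before and at 6777 to 7195 FPKM after (-0.53, adjusted p = 0.037). These 3 markers and RBCS1A (-0.19, adjusted p = 0.28) lay lower without overlap, a separation whose share over all genes is not given here. MYB60 overlapped (0.22, adjusted p = 0.34), and GL1 was at or near 0. Among the 5 tested, ATML1 was the 1 DEG, against 8.02% of all genes tested. The 6 markers summed to 20473 to 22584 FPKM in the wounding mock and to 16882 to 17857 FPKM after wounding. Nearly all of each such sum came from RBCS1A and LHCB1.3. In no library did ATML1 exceed 30.1 FPKM, MYB60 8.99 FPKM, SUC2 142 FPKM or GL1 0.0543 FPKM. After GSH and Glu none of the 5 passed the threshold. MYB60 had an adjusted p under 0.05 alone after Glu (log2 fold change 0.49, adjusted p = 0.018). ATML1 and MYB60 lay higher than the mock without overlap after both solutions, and LHCB1.3 did so after Glu. The same held for 18.6% of all genes after GSH and 17.8% after Glu. RBCS1A lay lower without overlap after both, a direction for which the share over all genes is not given here. LHCB1.3 overlapped after GSH, and SUC2 overlapped after both. The sums were 17542 to 19969 FPKM after GSH and 18076 to 21254 FPKM after Glu, against 19465 to 21032 FPKM in the mock. The part of these markers in the NAC results was not tested.

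Application of GSH to leaf 1 was followed by higher ANAC072 in leaf 6. This comparison asks which genes differ in the systemic leaf after GSH was applied. ANAC072 was at 1.45, 1.04 and 1.36 FPKM in the mock libraries and at 3.53, 6.29 and 5.14 FPKM after GSH. All GSH libraries were above all mock libraries, the mean was 3.88 times higher, and the log2 fold change was 1.37 (SE 0.18, adjusted p = 0.0046). It was the 1 DEG among the 6 members, against 1.21% of the 16878 genes tested (1.18% higher). ANAC019 was at 1.17, 1.02 and 1.45 FPKM in the mock and at 1.94, 4.73 and 4.02 FPKM after GSH. These groups did not overlap either, and its log2 fold change of 0.99 (SE 0.23, adjusted p = 0.048) was just under the threshold. Without GSH replicate 1, the lowest of the GSH libraries, it was 1.28 (adjusted p = 0.0013) and passed, and the number of DEGs over all genes was 316 in place of 205. With an adjusted p under 0.05 alone, 2 of the 6 members and 4.05% of all genes were higher. Without any one of the other 5 libraries, the log2 fold change of ANAC019 was 0.80 to 1.07 and its adjusted p was 0.089 to 0.17, so this second member was then lost.

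The ATAF genes stayed closer to the mock level after GSH. ATAF2 was at 23.2, 24.8 and 22.0 FPKM in the mock and at 26.8, 31.3 and 29.2 FPKM after GSH, without overlap, as in 18.6% of all genes in that direction. Its log2 fold change was 0.31 (adjusted p = 0.10). ANAC032 went from 9.54, 11.6 and 6.71 FPKM to 9.23, 14.6 and 13.3 FPKM, with overlap and a log2 fold change of 0.38 (95% interval -0.07 to 0.84, adjusted p = 0.33). ATAF1 was at 20.7, 26.1 and 21.2 FPKM in the mock and at 21.4, 28.7 and 25.9 FPKM after GSH. ANAC102 was at 32.5, 39.4 and 35.2 FPKM in the mock and at 28.0, 35.8 and 34.1 FPKM after GSH. The groups of both genes overlapped, with log2 fold changes of 0.15 (adjusted p = 0.56) and -0.13 (adjusted p = 0.58). The median log2 fold change was 0.35 over the 6 members and 0.04 over all genes.

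Application of Glu was compared with the same mock libraries, so the GSH and Glu comparisons are not independent. ANAC072 was at 4.48, 5.77 and 2.60 FPKM after Glu, above every mock library. Its mean was 3.33 times that of the mock, and its log2 fold change was 1.17 (SE 0.22, adjusted p = 0.012). It was again the 1 DEG among 6 members, against 1.23% of 16834 genes (1.15% higher). This call depended on single libraries. The adjusted p was 0.051 without mock replicate 2 and 0.061 without Glu replicate 1, and the log2 fold change was 0.96 without Glu replicate 2. ANAC019 was at 2.17, 2.51 and 3.42 FPKM after Glu, also above every mock library, with a log2 fold change of 0.73 (SE 0.16, adjusted p = 0.023), under the threshold on fold. With the threshold on the adjusted p and none on fold, these 2 members and 7.13% of all genes were higher.

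ATAF2 after Glu was at 27.5, 26.9 and 27.0 FPKM, above every mock library, with a log2 fold change of 0.21 (adjusted p = 0.10). Such separation upwards was found in 17.8% of all genes. ANAC032 was at 8.47, 11.6 and 7.55 FPKM, overlapping the mock libraries. ATAF1 was at 23.2, 26.2 and 21.4 FPKM and ANAC102 at 36.2, 34.4 and 33.7 FPKM, each overlapping the mock. The log2 fold changes of ANAC032, ATAF1 and ANAC102 were -0.0013, 0.06 and -0.03, with 95% intervals from -0.44 to 0.44, from -0.19 to 0.31 and from -0.22 to 0.16.

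GSH is a tripeptide that contains a glutamate residue, and both compounds were given at 100 mM for 1 h. In this 1 pair of compounds, none of the 6 members passed the threshold, against 0.0649% (11) of 16953 genes. The unadjusted p was under 0.05 in none of the members and in 1487 of all genes. The log2 difference, GSH minus Glu, was 0.20 for ANAC072 (95% interval -0.37 to 0.77) and 0.26 for ANAC019 (-0.30 to 0.83). For ANAC032 it was 0.39 (-0.04 to 0.81). For ATAF1, ATAF2 and ANAC102 it was 0.09, 0.09 and -0.10, with intervals within -0.33 and 0.38. The intervals of ANAC019, ANAC072 and ANAC032 were wider than those of the other 3 genes, and a p that misses the threshold does not show that the compounds act alike.

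**Figure D3:**
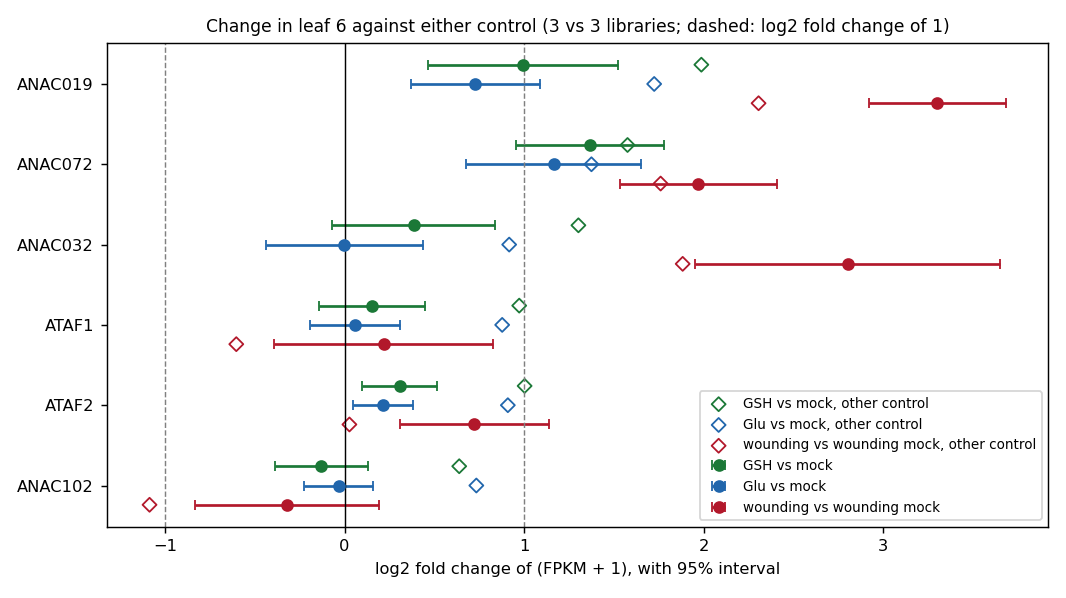
Filled points are log2 fold changes of (FPKM + 1) with 95% intervals for GSH (green), Glu (blue) and wounding (red) against their own controls, and open diamonds are the same treatments against the other control group. Dashed lines mark a log2 fold change of 1 in either direction. ANAC072 is past the line in each treatment against either control, and the diamond of ANAC102 after wounding lies at -1.09.

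Responses to the solutions and to the wound were then set against each other, as the effect against the own control in one fit of 12 libraries. ANAC019 responded less to GSH than to wounding by 2.31 on the log2 scale (estimate -2.31, SE 0.31, adjusted p = 0.00027), and ANAC032 had a difference of -2.42 (SE 0.46, adjusted p = 0.0037). For Glu minus wounding the differences were -2.57 for ANAC019 (SE 0.22, adjusted p = 7.5e-06) and -2.80 for ANAC032 (SE 0.46, adjusted p = 0.0011). In each of the 2 contrasts, 2 of the 6 members passed the threshold, both lower, against 6.9% of genes for GSH (3.9% lower) and 7.31% for Glu (4.19% lower). The contrasts of GSH and Glu share the mock, wounding mock and wounding libraries. For ANAC072 the differences were -0.60 (95% interval -1.20 to -0.01, adjusted p = 0.19) for GSH and -0.80 (-1.47 to -0.13, adjusted p = 0.11) for Glu. For ATAF1, ATAF2 and ANAC102 no difference was past the threshold. Without wounding mock replicate 1, the differences were -2.24 for ANAC019 and -1.95 for ANAC032 (GSH), and -2.50 and -2.34 (Glu), with each call kept. ANAC072 was at -0.43 and -0.63, again not past the threshold.

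These differences also contain the difference between the 2 control groups. In an alternative chosen after seeing the data, the solution libraries were compared with the wounding libraries directly, which gives both effects 1 control. ANAC019 was then at -1.31 (adjusted p = 0.0024) and ANAC032 at -1.50 (adjusted p = 0.00012) for GSH minus wounding, both still past the threshold. For Glu minus wounding they were at -1.58 (adjusted p = 4.0e-05) and -1.88 (adjusted p = 9.4e-06). ANAC102 was at 1.05 for Glu (adjusted p = 1.0e-05) and at 0.96 for GSH, so 3 of the 6 members passed for Glu and 2 for GSH, against 6.95% and 6.32% of all genes. The sizes of the ANAC019 and ANAC032 differences thus turned on the control.

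Levels of these genes were also compared between the control groups. The mock libraries of ANAC019 (1.02 to 1.45 FPKM) lay above those of the wounding mock (0 to 0.217 FPKM), and so did those of ATAF1, ATAF2 and ANAC102. This held for 4 of the 6 members and for 7.49% of all genes in the same direction. The log2 differences, mock minus wounding mock, were 1.00 for ANAC019, 0.92 for ANAC032, 0.82 for ATAF1, 0.77 for ANAC102, 0.70 for ATAF2 and 0.21 for ANAC072. None passed the threshold (adjusted p from 0.17 to 0.83), whereas 39 genes (0.233%) did by limma. The unadjusted p was under 0.05 for 4 of the members (ANAC019, ATAF1, ATAF2 and ANAC102) and for 993 of 16739 genes. ANAC019 passed the filter of this comparison only through its mock libraries, so it could enter both counts of members only as higher in the mock. Without wounding mock replicate 1, the same differences were 0.92 for ANAC019, 0.03 for ANAC072 and 0.45 to 0.53 for the 4 ATAF genes, and 67 genes were DEGs. The 10 members summed to 36.3, 66.2 and 62.4 FPKM in the wounding mock and to 88.8, 104 and 88.1 FPKM in the mock. The labels do not explain these differences, and their source was not tested.

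Some calls turned on the control group. Against the mock group in place of its own control, wounding still gave ANAC019 (log2 fold change 2.31), ANAC032 (1.88) and ANAC072 (1.76) as DEGs. ANAC102 then became a DEG with a log2 fold change of -1.09 (adjusted p = 2.2e-05), since its wounding libraries (14.95 to 17.7 FPKM) lay below the mock libraries (32.5 to 39.4 FPKM). These were 4 of the 6 members, against 6.82% of all genes. ATAF1 changed direction to -0.60 (adjusted p = 0.0028), and ATAF2 was at 0.03. Against the wounding mock, GSH gave 3 DEGs among the members, ANAC072 (1.58), ANAC019 (1.99) and ATAF2 (1.00), against 1.88% of all genes. Glu gave 2, ANAC072 (1.38) and ANAC019 (1.72), against 2.53%. In both of these comparisons ANAC019 passed the filter only through its GSH or Glu libraries, so it could enter the counts only as a higher gene. ANAC072 was thus a DEG in all 3 treatments against either control.

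The other NAC genes were read from the same fits. Of the 90 further NAC genes in the table, 27 were tested after wounding. Of these, 3 were DEGs, all higher, against 8.02% of all genes tested (5.28% higher). ANAC025 was listed at 0 in all wounding mock and mock libraries and was at 1.96, 2.62 and 2.71 FPKM after wounding. ANAC041 was at 1.19, 2.97 and 2.23 FPKM before and at 4.40, 7.14 and 5.33 FPKM after wounding, with a log2 fold change of 1.10 (adjusted p = 0.022). ANAC096 reached 1.50, 1.07 and 1.48 FPKM from 0, 0.12 and 0.26 FPKM. ANAC025 and ANAC096 passed the filter only through their wounding libraries, so they could enter the test only as higher genes. Without wounding mock replicate 1, ANAC025 remained a DEG, while ANAC041 (log2 fold change 0.87) and ANAC096 (0.98) were under the threshold on fold. ANAC018 (0.77) and ANAC078 (0.43) had an adjusted p under 0.05 alone after wounding, and so did ANAC017 (0.33) and ANAC053 (0.46) after Glu. After GSH none of 27 tested was a DEG by limma, and 1 (ANAC041) had an adjusted p under 0.05, with a log2 fold change of 0.71. After Glu 1 of 28 was a DEG, against 1.23% of all genes. This was ANAC036, which rose from 0.22, 0.20 and 0.07 FPKM to 2.18, 1.59 and 4.24 FPKM (log2 fold change 1.59, adjusted p = 0.0053). That gene passed the filter only through its Glu libraries, so the counts after GSH and Glu depend on the filter. ANAC036 was at 0.70, 2.05 and 1.53 FPKM after GSH, where too few libraries passed the filter for a test, and at 0.11 FPKM or less after wounding. The median log2 fold changes over the other NAC genes were 0.00075 after wounding, 0.13 after GSH and 0.14 after Glu.

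**Figure D4:**
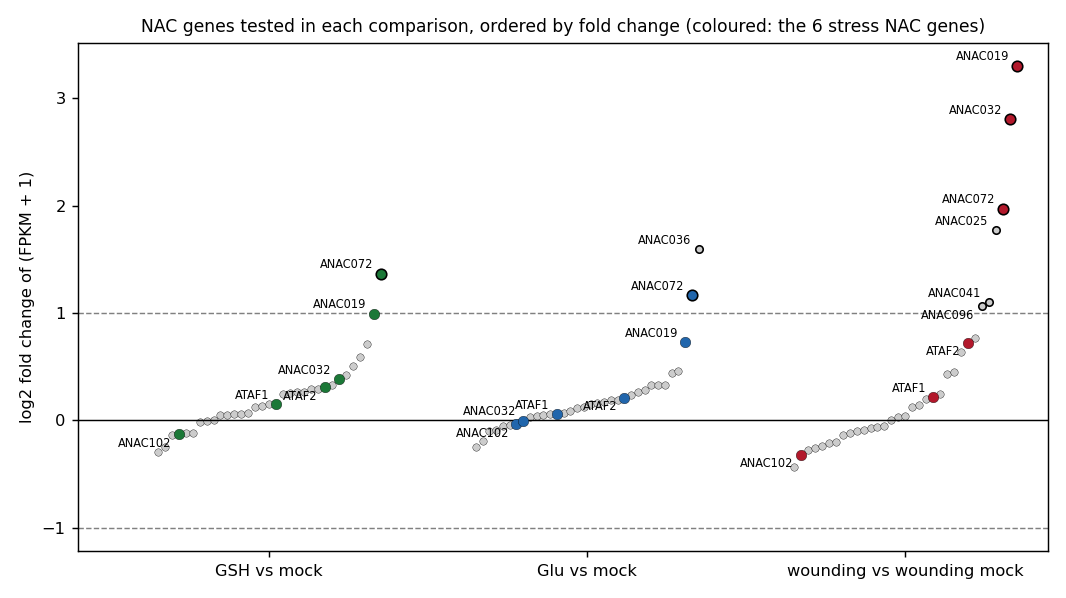
Points are the NAC genes tested in each treatment, ordered by log2 fold change of (FPKM + 1) on the vertical axis. The 6 stress NAC genes are coloured, and DEGs have a thicker black outline than the other points. ANAC019, ANAC032 and ANAC072 are the highest points after wounding, and ANAC072 the highest after GSH.

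Regulators described upstream of these genes were also read. MYC2 was at 0, 0.46 and 0 FPKM in the wounding mock and at 18.1, 25.0 and 20.9 FPKM after wounding, a log2 fold change of 4.29 (adjusted p = 8.0e-06). In the other groups it was scattered. It was at 3.99, 0 and 0.67 FPKM in the mock, at 5.42, 2.03 and 16.8 FPKM after GSH and at 3.41, 3.09 and 0 FPKM after Glu, and neither comparison passed the threshold (adjusted p of 0.18 and 0.76). PIF5, a light-signalling factor that acts upstream of ORE1, fell from 19.5, 26.6 and 25.6 FPKM to 6.39, 7.43 and 8.18 FPKM after wounding (log2 fold change -1.57, adjusted p = 0.00039). These were the 2 DEGs, 1 higher and 1 lower, among 16 tested regulators in the wounding comparison, against 8.02% of all genes. MYC2 passed the filter there only through its wounding libraries. Both genes remained DEGs without wounding mock replicate 1 (4.20 and -1.71). The abscisic acid factor ABF3 was then a DEG as well, at -1.65. None of 17 was a DEG after GSH or Glu, against 1.21% and 1.23% of all genes. By adjusted p alone, EIN3, an ethylene-response factor, was higher after GSH (log2 fold change 0.41) and after Glu (0.45). ABF3 had a log2 fold change of -0.56 after Glu. MYC3, a relative of MYC2, was at 0.45 after Glu (adjusted p = 0.0069) and at 0.66 after wounding (adjusted p = 0.013). After wounding the same held for MYC4 at 0.41 (adjusted p = 0.037) and for EIL1, a relative of EIN3, at -0.91 (adjusted p = 0.0018).

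Genes reported as targets of the members were read next. BSMT1 makes methyl salicylate and is activated by ANAC019, ANAC055 and ANAC072. It was listed at 0 in all wounding mock and mock libraries and was at 20.0, 19.5 and 17.3 FPKM after wounding, with no more than 0.63 FPKM after GSH and 0.17 FPKM after Glu. VSP1 and LOX2, which need ANAC019 and ANAC055 for their full jasmonate response, rose after wounding with log2 fold changes of 3.82 (adjusted p = 0.00018) and 3.18 (adjusted p = 2.3e-06). VSP1 was at 39.4 to 105 FPKM in the wounding mock, at 811 to 908 FPKM after wounding, and at 1255 to 1988 FPKM in the mock. LOX2 was at 395 to 503 FPKM in the wounding mock and at 1293 to 1989 FPKM in the mock. Both genes were DEGs between the control groups (log2 differences 4.81 and 1.86), and neither passed after GSH or Glu. Without wounding mock replicate 1, the changes after wounding were 4.32 for BSMT1, 4.23 for VSP1 and 3.09 for LOX2, and the control differences were 5.22 for VSP1 and 1.77 for LOX2, all still past the threshold. ICS1, a salicylic acid synthesis gene repressed by this NAC trio, was at 3.85 ± 1.26 FPKM (SD, n = 3) before and at 1.50 ± 0.205 FPKM after wounding (log2 fold change -0.92, adjusted p = 0.025, under the threshold on fold). Without that library it was at -1.15 (adjusted p = 0.00073) and passed. UGT74F2, a salicylic acid glucosyltransferase, had a log2 fold change of 0.39 (adjusted p = 0.10). In all, 3 of 20 tested targets were DEGs after wounding, all higher, against 8.02% of all genes (5.28% higher). None of 19 was a DEG after GSH or Glu, against 1.21% and 1.23% of all genes. BSMT1 passed the filter only through its wounding libraries and was not tested after GSH or Glu, so these counts depend on the filter. The median over the targets after wounding was 0.07.

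Among targets of the other members, none was a DEG in any of the 3 treatments. NYC1, a chlorophyll b reductase gene activated by ORE1, had a log2 fold change of -0.94 after wounding (adjusted p = 0.0096). DREB2A, a drought-response factor activated by JUB1, was at 2.47, 3.34 and 2.75 FPKM before and at 7.17, 6.13 and 6.72 FPKM after wounding, with a log2 fold change of 0.998 (adjusted p = 0.0027), just under the threshold. After Glu, TRE1 and GLK1, a trehalase and a chloroplast regulator controlled by ATAF1, had log2 fold changes of 0.73 (adjusted p = 0.012) and 0.40 (adjusted p = 0.048), GA3OX1, which JUB1 represses, had one of -0.72 (adjusted p = 0.044), and DREB2A one of 0.52 (adjusted p = 0.041). All stayed under the threshold on fold. NCED3, the abscisic acid synthesis gene that ATAF1 activates, passed in none of the 3 treatments.

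Senescence markers gave 1 DEG in each treatment. SAG12 was listed at 0 in all 15 libraries. SAG21, a gene of oxidative stress and senescence, rose after GSH from 0.83, 1.53 and 0.64 FPKM to 3.62, 15.4 and 9.90 FPKM (log2 fold change 2.26, adjusted p = 0.016). After Glu it was at 13.4, 3.95 and 18.3 FPKM (2.50, adjusted p = 0.0088), and after wounding at 1.05 to 1.20 FPKM, where it was not a DEG. PPH, the pheophytinase of chlorophyll breakdown, rose after wounding from 13.8, 21.4 and 19.7 FPKM to 52.9, 53.3 and 51.8 FPKM (log2 fold change 1.50, adjusted p = 0.00065). Without wounding mock replicate 1 it was at 1.31 and still a DEG. SAG101 had a log2 fold change of -0.73 (adjusted p = 0.0098), and DIN6, a dark-inducible asparagine synthetase gene, one of 0.80 (adjusted p = 0.033). Of the tested markers, 1 of 4 was a DEG after GSH, 1 of 5 after Glu and 1 of 5 after wounding, all higher. The shares over all genes were 1.21%, 1.23% and 8.02% in turn. SAG21 would not have passed the filter on its mock libraries alone.

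**Figure D5:**
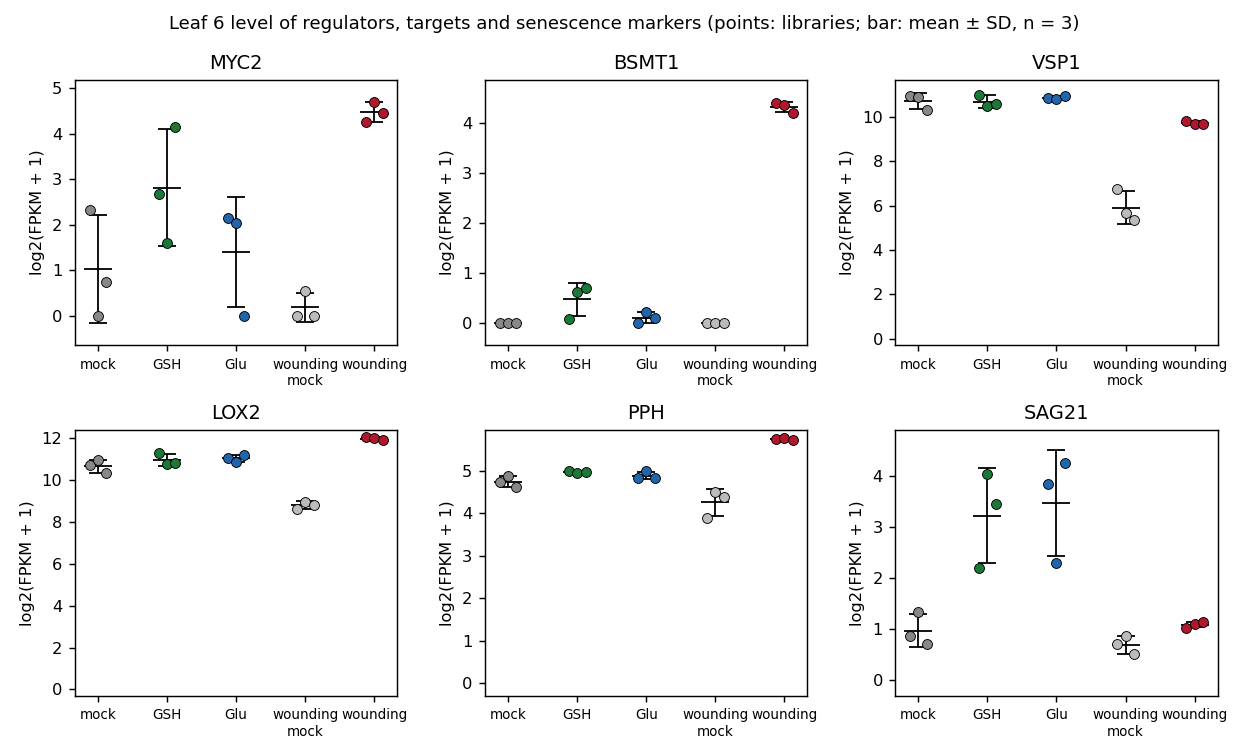
Panels give log2(FPKM + 1) of 6 linked genes in the 5 groups, with points for libraries and bars for the mean ± SD (n = 3). BSMT1 and MYC2 are high after wounding, VSP1 and LOX2 are lowest in the wounding mock group, and SAG21 passes the threshold after GSH and Glu.

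The pattern of each member over the 15 libraries was compared with that of all other genes by Pearson's r of log2(FPKM + 1). Points share group and library, so these values are descriptions. ANAC019 was most like OPR3 (r = 0.975) of jasmonate synthesis, AT3G51450 (0.975) and the jasmonate repressor gene JAZ6 (0.974). ANAC072 was most like the glutathione S-transferase gene GSTF10 (0.978), AT3G51440 (0.975) and TAT3 (0.972), a tyrosine aminotransferase gene. ATAF1 was most like AT5G48020 (0.960), AT2G44310 (0.950) and AT3G58640 (0.949). Between members, ANAC019 had r = 0.90 with ANAC032 and 0.89 with ANAC072, and ATAF1 had 0.89 with ANAC102. ANAC019 and ANAC102 were at -0.22.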

How the data were processed

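Leaf 6 of WT plants was sequenced in 15 libraries, grouped by the labels. The authors trimmed reads with cutadapt and Trimmomatic, mapped them with HISAT2 to TAIR10 and made the deposited FPKM values with StringTie (versions not given in the sources used here). The values are not whole numbers and no read counts were recovered, so tests that need counts were not run. FPKM hides depth, and the precision of low values is unknown.

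Tests were made with limma 3.58.1 (R 4.3.3; trend, no further scaling) on log2(FPKM + 1), with Benjamini-Hochberg adjustment, and were two-sided. A gene was tested where at least 3 of the compared libraries reached 1 FPKM. DEGs had a log2 fold change above 1 in size, with an adjusted p under 0.05. The 7 comparisons set each solution against the mock, wounding against its mock, the solutions against each other, the mocks against each other, and the effect of each solution against that of wounding. The method was tested on simulated data. The members and lists (17 upstream regulators, 24 reported targets, 9 senescence markers, 6 leaf and 4 other organ markers) were chosen with earlier results of these data known. Single genes were named by rule. These were all members, other NAC genes and list genes that were DEGs, ICS1, UGT74F2, MYC2 and the genes most like ANAC019, ANAC055, ANAC072 and ATAF1. ANAC055 was under the filter, so no gene was compared with it. List genes that passed the adjusted p alone, and the markers and neighbours of the members, were named after their values were seen.

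Gene names, positions, overlaps and upstream sequences were taken from RefSeq TAIR10.1, in which 99.1% of gene IDs were found. TAIR10 is the build in the submitters' processing notes, and the deposited table gives no positions. Replicate numbers are in the labels, but deviations of same-numbered libraries correlated between -0.15 and 0.19, so they were not used as pairs. Alternatives changed the filter, pseudocount, scaling, threshold, control, libraries in the fit and replicate block, or left out each library. After seeing the data, 1 control for both effects and list genes without wounding mock replicate 1 were added.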

Additional observations from a re-analysis of the deposited data

Results flagged for a closer look

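Several genes had an effect of GSH or Glu that differed from the effect of wounding by limma's test of the difference itself. Each value is the log2 effect of the solution minus that of the wound, with each effect taken against its own control. Among the members, ANAC019 differed by -2.31 and ANAC032 by -2.42 for GSH, and by -2.57 and -2.80 for Glu. Of the other NAC genes, ANAC025 differed by -1.70 (GSH) and -1.77 (Glu), and ANAC036 by 1.66 (Glu). Of the regulators, PIF5 differed by 1.75 (GSH) and 1.67 (Glu), and MYC2 by -3.92 (Glu). Of the reported targets, BSMT1 differed by -3.84 (GSH) and -4.21 (Glu), VSP1 by -3.84 and -3.67, and LOX2 by -2.88 and -2.81. Of the senescence markers, SAG21 differed by 1.86 (GSH) and 2.11 (Glu), SAG101 by 1.10 and 1.05, and PPH by -1.27 and -1.36. SHA1, which overlaps ANAC102, differed by 1.02 (Glu). In these fits BSMT1 and ANAC025 passed the filter only through the wounding libraries, and ANAC036 only through the Glu libraries.

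All of these values also hold the difference between the 2 controls, which was 1.00 for ANAC019, 0.92 for ANAC032, 4.81 for VSP1 and 1.86 for LOX2. With 1 control for both effects, an alternative chosen after seeing the data, ANAC019 and ANAC032 stayed past the threshold at -1.31 and -1.50 (GSH) and at -1.58 and -1.88 (Glu). Of the other genes listed, 5 of 8 kept their call in their direction for GSH and 6 of 11 for Glu. VSP1 reversed to 0.96 (GSH) and 1.14 (Glu). SAG101 at 0.94 and 0.89, PPH at -0.78 and -0.86, LOX2 at -0.95 (Glu) and SHA1 at 0.99 (Glu) were under the threshold on fold. Without wounding mock replicate 1, 8 of 8 were kept for GSH and 10 of 11 for Glu, with SHA1 at 0.95.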

How the results depend on the processing

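Of 564 member fold changes under alternatives, 527 kept their direction and their side of the threshold, 23 reversed, 5 lost and 9 gained the call. The causes were not tested. Without a filter on low values, GSH gave 84 DEGs and 0 DEGs among members, Glu 0 members, GSH against Glu 1 gene and mock against wounding mock 19 genes. ANAC072 then had an adjusted p of 0.061 (GSH) and 0.067 (Glu). With a pseudocount of 0.1, 2 members passed after GSH and 2 after Glu, where 316 genes passed. With the adjusted p alone, GSH had 779 genes and 2 members, Glu 1712 and 2, wounding 3303, GSH minus wounding 2338 and Glu minus wounding 2651. Against the other control, GSH had 318 genes and 3 members, Glu 427 and 2, and reversed values were 0.64 (ANAC102, GSH), 0.92 (ANAC032, Glu), 0.73 (ANAC102, Glu) and -0.60 (ATAF1, wounding). ANAC019, in both of these member counts, passed the filter there only through its GSH or Glu libraries. With 1 control for solution and wounding effects (chosen after seeing the data), ATAF1 reversed to 0.76 (GSH) and 0.66 (Glu), and ATAF2 to 0.28 and 0.19. One fit of all 15 libraries gave 81 genes between the controls. With a replicate block, no member changed its call (ANAC019 after GSH had an adjusted p of 0.072, ANAC072 one of 0.022).

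Leaving out each library in turn gave 142 to 316 genes and 1 to 2 members for GSH, 182 to 245 genes and 0 to 1 members for Glu, 1197 to 1418 genes and 3 members for wounding, 2 to 33 genes for GSH against Glu, and 4 to 67 genes between the controls. GSH minus wounding gave 1096 to 1317 genes, and Glu minus wounding 1172 to 1384 genes and 2 to 3 members, with ANAC072 as the third without Glu replicate 2. Small values that reversed ranged from -0.016 to 0.16 (ATAF1, Glu), -0.19 to 0.16 (ANAC032, Glu), -0.10 to 0.038 (ANAC102, Glu), -0.075 to 0.47 (ATAF1, wounding), -0.16 to 0.0071 (ANAC102, GSH against Glu), -0.052 to 0.40 (ANAC072, GSH against Glu), -0.32 to 0.23 (ATAF1, GSH minus wounding) and -0.41 to 0.13 (ATAF1, Glu minus wounding). FPKM gives no depth, so no counting limit could be set for the 4 members near 0.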

Other observations

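PPH, the pheophytinase gene of chlorophyll breakdown, was the gene whose pattern over the 15 libraries was most like that of ANAC032 (Pearson r = 0.978). It was named after the values were seen. The 100 NAC genes together summed to 241 to 264 FPKM in the wounding mock group, 282 to 309 FPKM in the mock, 293 to 377 FPKM after GSH, 315 to 333 FPKM after Glu and 309 to 325 FPKM after wounding. The 10 stress NAC genes held 105 to 113 FPKM of the sum after wounding and 36.3 to 66.2 FPKM of it in the wounding mock. Their part was 88.1 to 104 FPKM in the mock, 91.4 to 122 FPKM after GSH and 95.8 to 107 FPKM after Glu.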
